A study of Homo sapiens with 18 samples.

Results

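The regions described here are the places on human chromosome 10 where the RNA-binding protein QKI was crosslinked to RNA, outside the interval chr10:21068902-21463116 (hg19) that the gene NEBL occupies. They were taken by position: every peak on chromosome 10, on either strand, in 9 peak files of single libraries and 3 lists of reproducible peaks, leaving out minus-strand peaks that overlap that interval. This gave 38108 of 889743 entries. The chromosome was selected on its share of passing peaks, which was higher at day 8 than at day 0, so that share and every day 8 difference are given as description, with no p-value.

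QKI is a STAR-family RNA-binding protein that recognises a short sequence, in introns and in 3′ untranslated regions, and regulates splicing, stability and localisation of the bound RNA. In heart muscle it is known as a splicing regulator of transcripts of the contractile and cytoskeletal apparatus. In eCLIP, cells are irradiated with ultraviolet light, RNA fragments crosslinked to the protein are immunoprecipitated with an antibody, and their density is compared with a size-matched input library. The output is a set of short clusters of reads, each with a fold over input.

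HUES6, a human embryonic stem cell line, was taken through differentiation to cardiomyocytes, with 3 immunoprecipitated libraries and 3 inputs at each of days 0, 4 and 8. Day 0 cells were pluripotent and kept in growth medium. Days 4 and 8 followed 1.5 uM CHIR with 1.5 ng/mL BMP4 at plating and later C59, which the labels give at 100 nM and, at the next medium change, at 100 mM. Day 4 cells were crosslinked as cardiac progenitors, and day 8 cells as cardiomyocytes once beating was seen at days 7 to 8. All libraries came from 1 cell line without a genetic change named in the labels. Whether the replicates of a day were grown as separate cultures is not said in the labels, and p-values thus measure only the spread between these libraries, which may be technical. Peak files hold no expression levels, so the cell types could not be checked against their markers, and more binding per RNA molecule cannot be told apart from more RNA.

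A passing peak is a cluster at least 4-fold over input with p of at most 0.001, as the authors scored it. The libraries held 52462 to 187962 clusters and 3030 to 15508 passing peaks on all chromosomes. Read depth is unknown. At day 0 there were 648, 558 and 593 passing peaks on chromosome 10 in replicates 1, 2 and 3. At day 4 there were 105, 348 and 185, and at day 8 there were 328, 248 and 659. Because totals differed this much, levels below are shares, the percent of a library's passing peaks on all chromosomes. The interval left out held no passing peak at day 0, 1, 2 and 1 at day 4, and 21, 18 and 29 at day 8.

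At day 0, chromosome 10 held 4.18%, 4.40% and 4.54% of the passing peaks. At day 4 it held 3.47%, 4.48% and 4.63%, and at day 8 it held 5.19%, 6.66% and 6.01%. Every day 8 library lay above every library of days 0 and 4, while days 0 and 4 overlapped. The means were 4.37% ± 0.181 at day 0, 4.19% ± 0.631 at day 4 and 5.95% ± 0.735 at day 8 (SD, n = 3 each). The ratio of the day 8 mean to the day 0 mean was 1.36, rank 2 of 23 chromosomes, which is the property by which chromosome 10 was chosen. Clusters of any fold gave a share of 4.09% ± 0.0922, 3.99% ± 0.219 and 5.09% ± 0.370 (SD, n = 3) at the 3 days. The rule did not use day 4 against day 0, where the share differed by -0.181 percentage points (two-sided exact permutation test over 20 splits, p = 0.9; 3 libraries against 3 cannot go below 0.1). This difference was smaller than the spread at day 4 and changed sign without day 4 replicate 1, to 0.181 points.

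**Figure D1:**
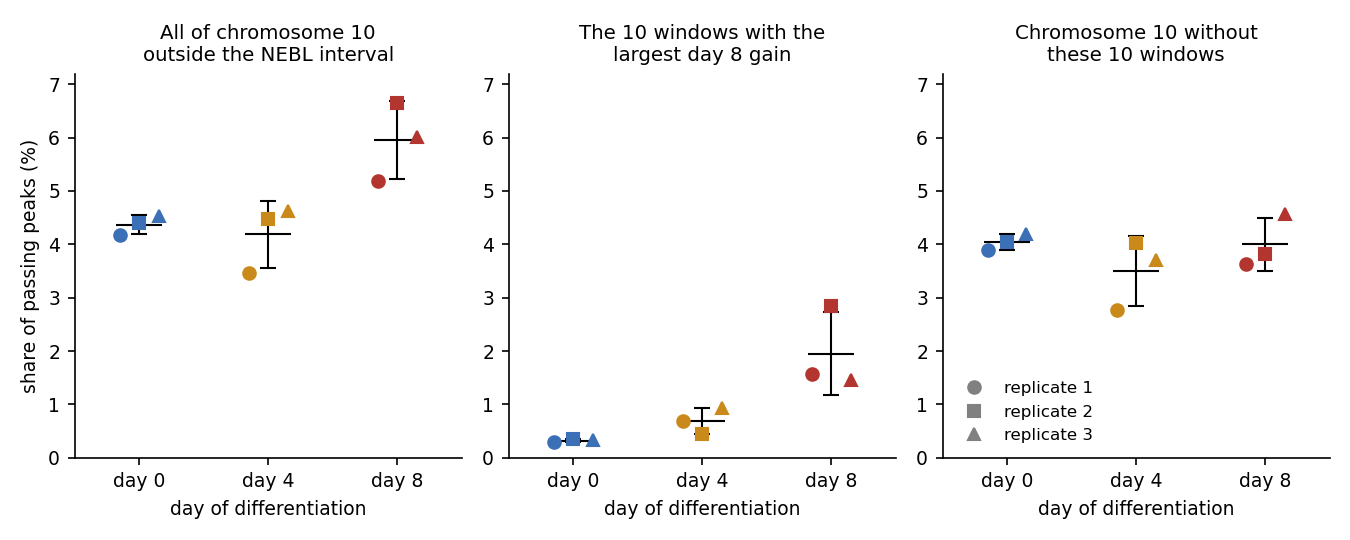
Share of each library's passing peaks (%) on chromosome 10 outside the NEBL interval (left), in the 10 windows with the largest day 8 gain (middle) and on chromosome 10 without these windows (right), for 3 libraries per day, with the mean and SD. On the left the day 8 libraries lie between 5.19% and 6.66%, above all others. On the right the day 8 mean of 3.998% lies below the day 0 mean of 4.05%, a comparison set in part by choosing windows by their gain.

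To find which stretches carried the day 8 share, the chromosome was divided into windows of 100 kb on 1 strand, and each peak was placed by its midpoint. A window's contribution is its mean day 8 share minus its mean day 0 share, in percentage points, and contributions add up to the 1.58 points of the chromosome. Of 388 windows with a passing peak in any library, 181 were positive, 183 negative and 24 exactly 0. The positive contributions summed to 3.26 points and the negative ones to -1.68 points. A single window held 0.728 points, or 46.0% of the net difference and 22.3% of the positive sum. The 10 largest held 1.63 points, or 49.995% of the positive sum, and without them the remaining windows came to -0.0480 points. Most of the net difference thus lay in few windows, although picking the largest gains lowers what remains by construction.

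The 10 windows held 0.290%, 0.347% and 0.337% of the passing peaks at day 0. They held 0.693%, 0.450% and 0.925% at day 4, and 1.57%, 2.84% and 1.45% at day 8. The lowest day 8 library lay above the highest day 4 library, and the lowest day 4 library above the highest day 0 library. The windows were picked by day 8 minus day 0 in these same libraries. Low day 0 and high day 8 shares are thus in part set by that choice. The rise at day 4, from a mean of 0.324% to 0.689%, lay mostly in the window with the largest gain, which rose by 0.315 points. In the windows at ranks 3, 4, 6 and 8 by contribution, the day 4 mean share lay below that of day 0. As a percent of the passing peaks of chromosome 10 itself, the 10 windows made up 7.42% ± 0.470 at day 0, 16.7% ± 5.74 at day 4 and 32.4% ± 9.49 at day 8 (SD, n = 3). Against day 4, the net difference of day 8 was 1.76 points, and its 10 largest windows, a list drawn anew, held 1.54 points.

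**Figure D2:**
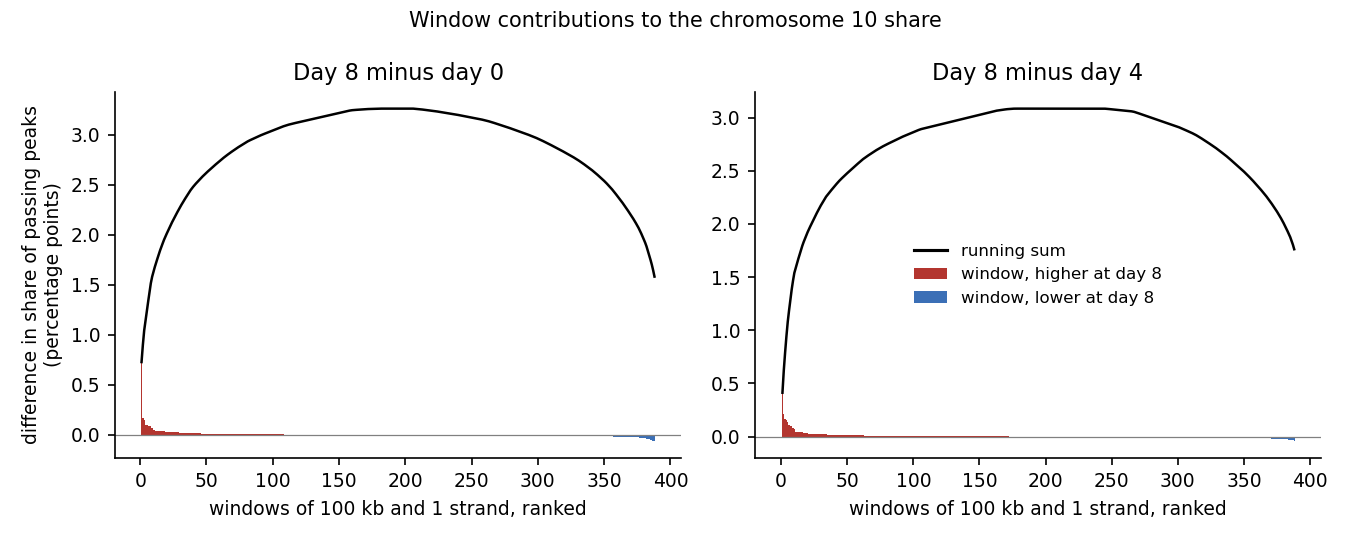
Contribution of each 100-kb, 1-strand window to the difference in the chromosome 10 share (percentage points of passing peaks), ranked from the largest gain to the largest loss, for day 8 minus day 0 (left) and day 8 minus day 4 (right). The line is the running sum: on the left it starts at 0.728 with the first window, passes 1.63 at 10 windows, peaks at 3.26 and ends at 1.58.

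The windows are given by hg19 position and strand. An hg19 gene annotation and genome were not used here, so windows carry no gene names and no sequences are shown. The largest gain was at chr10:71600001-71700000 on the plus strand. It held 13, 18 and 15 passing peaks at day 0, 10, 16 and 30 at day 4, and 35, 51 and 66 at day 8. The mean shares at days 0, 4 and 8 were 0.113% ± 0.0290, 0.429% ± 0.285 and 0.841% ± 0.457 (SD, n = 3), and the day 8 mean was 7.42 times that of day 0. Every day 4 library lay above every day 0 library, and days 4 and 8 overlapped. Day 8 replicate 2, at 1.37%, was the highest; without it the contribution was 0.464 points in place of 0.728.

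The binding in this window lay mostly within a few kilobases. In the 5-kb stretch chr10:71665001-71670000 the summed passing peaks were 41 over the day 0 libraries, 35 at day 4 and 68 at day 8. In the next 5 kb, chr10:71670001-71675000, they were 2, 11 and 43, and in the 5 kb after that 3, 7 and 26. Compared with day 0, the day 8 libraries thus added peaks both within the stretch already bound and downstream of it. Downstream, the day 4 sums already lay above those of day 0 in both 5-kb stretches. These sums are not divided by library totals. In the first stretch the sum fell from 41 to 35 between days 0 and 4, but totals fell further. Mean passing peaks per library on all chromosomes were 13757 for day 0 and 4935 for day 4. The pooled share of the first stretch was therefore higher, not lower, at day 4. The 8 reproducible day 0 peaks spanned 4126 bases, chr10:71665759-71669884. The 4 of day 4 spanned 470 bases inside that stretch, and the 24 of day 8 spanned 11073 bases, chr10:71665774-71676846.

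Of these 24 day 8 peaks, 9 overlapped a passing peak in 3 of 3 day 0 libraries and 9 in 0 of 3. A reproducible day 0 peak was overlapped by 9 of the 24. On all of chromosome 10 this held for 49 of 88 day 8 peaks, and on the other chromosomes for 971 of 1480. The window was chosen by its gain over day 0, so these counts are no test. The strongest of the 24, chr10:71667316-71667385, had a log2 fold of 7.97 in the authors' list. The best overlapping peak in each library had log2 folds of 6.85, 6.56 and 4.76 at day 0, 6.99, 7.52 and 8.36 at day 4, and 7.54, 6.39 and 9.39 at day 8. This site was bound in all 9 libraries. Every day 4 library lay above every day 0 library there, and day 8 overlapped both. The median log2 fold of the reproducible peaks in the window was 5.50 at day 0 (n = 8 peaks) and 5.44 at day 8 (n = 24 peaks). These medians are over different sets of sites, so they do not compare fold at the same site. The day 8 peaks were also narrower, with a median width of 50.5 bases against 78.5 at day 0. Their summed width was 1310 bases against 669, so the number of peaks rose more than the bases covered.

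**Figure D3:**
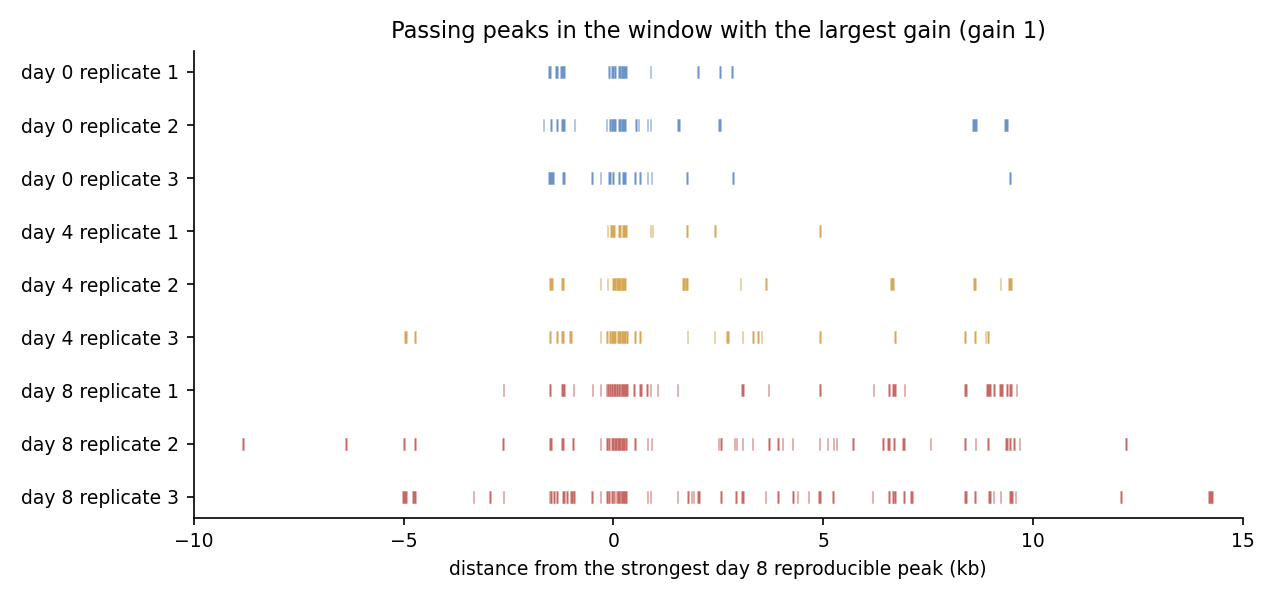
Passing peaks in the window with the largest gain, 1 line per library, by distance (kb) from its strongest day 8 reproducible peak, and each bar spans a peak. All 9 libraries have peaks around 0, and the day 8 libraries have added peaks from about 2 to 10 kb downstream. Some peaks of the earlier days lie there as well.

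Second came chr10:18400001-18500000 on the plus strand, with 0.172 points. It held 2, 2 and 0 passing peaks at day 0, 0, 1 and 1 at day 4, and 11, 9 and 14 at day 8. The share of passing peaks there was near 0 at both earlier days, and the day 8 libraries did not overlap them. Mean shares were 0.00955% ± 0.00839, 0.0126% ± 0.0125 and 0.181% ± 0.0573 (SD, n = 3). Clusters of any fold were not absent: the window held 13, 15 and 13 at day 0, 3, 3 and 4 at day 4, and 26, 37 and 36 at day 8. Its reproducible peak chr10:18484984-18485039 (log2 fold 4.59) had no overlapping cluster of any fold in the 6 libraries of days 0 and 4. With its positive neighbour this stretch of 200 kb, chr10:18400001-18600000, contributed 0.208 points.

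The windows chr10:68700001-68800000 and chr10:68800001-68900000, both on the minus strand, were at ranks 3 and 5 with 0.145 and 0.0950 points. The former held 4, 2 and 3 passing peaks at day 0, 0, 1 and 1 at day 4, and 11, 7 and 15 at day 8. The latter held 4, 3 and 8, then 1, 5 and 2, then 5, 5 and 20. In shares, the day 8 libraries of both windows lay above all libraries of the earlier days. The windows belong to 9 positive neighbours on 1 strand, chr10:68500001-69400000, the longest such run among the 10 windows. Over that run the share was 0.0584% ± 0.0232 at day 0, 0.0744% ± 0.0362 at day 4 and 0.439% ± 0.0953 at day 8 (SD, n = 3), a contribution of 0.380 points. Its strongest reproducible day 8 peak in the former window, chr10:68777029-68777091 (log2 fold 5.81), was a passing peak in 2 of the 3 libraries of day 0 and in none of day 4.

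At rank 4, chr10:5900001-6000000 on the minus strand held 2, 1 and 1 passing peaks at day 0, none at day 4 and 8, 5 and 7 at day 8. The day 8 mean share of 0.108% ± 0.0386 was 11.4 times that of day 0 (0.00948% ± 0.00297; SD, n = 3). With peaks pooled over the libraries of a day, and not as a ratio of mean shares, day 8 was at least 4.70-fold higher than day 4. This used a floor of 3 peaks over the 3 empty day 4 libraries. The reproducible peak chr10:5916217-5916290 reached a log2 fold of 5.02, and 1 of the 3 libraries of day 0 had a passing peak there.

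Ranks 6 to 8 were windows already bound at day 0. The plus-strand window chr10:3100001-3200000 held 6, 5 and 7 passing peaks at day 0, 2, 4 and 0 at day 4, and 8, 8 and 8 at day 8. The minus-strand window chr10:29800001-29900000 held 7, 7 and 4, then 2, 4 and 3, then 6, 8 and 11. The minus-strand window chr10:116200001-116300000 held 5, 2 and 3, then 1, 1 and 0, then 5, 6 and 11. Summed over the libraries of a day, they held 18, 18 and 10 passing peaks at day 0 and 24, 25 and 22 at day 8, and their day 8 mean shares were 3.15, 3.13 and 4.80 times those of day 0. Without day 8 replicate 2, the contributions of the first and second of these were 0.0559 and 0.0540 points in place of 0.0942 and 0.0930. The strongest reproducible peak of the window at chr10:29800001-29900000, chr10:29824704-29824783 (log2 fold 4.96), passed in all 9 libraries.

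The last of the 10 rested on few peaks. The minus-strand window chr10:73500001-73600000 held 2, 4 and 3 passing peaks at day 0, 5, 2 and 0 at day 4, and 7, 5 and 2 at day 8. Its days overlapped, and it had no reproducible day 8 peak. Its contribution of 0.0653 points was 0.0420 without day 8 replicate 2 and 0.10002 without day 8 replicate 3. The plus-strand window chr10:112400001-112500000 held no passing peak at day 0, 0, 1 and 0 at day 4, and 3, 2 and 5 at day 8. With peaks pooled over libraries, it was at least 6.55-fold higher at day 8 against the floor of 3 peaks over day 0. The window had no cluster of any fold at day 0, but 15, 23 and 37 clusters at day 4 and 14, 26 and 24 at day 8. Like the former window, it had no reproducible day 8 peak. Its contribution of 0.0489 points lay just inside the list, and the window at rank 11, chr10:29700001-29800000 on the minus strand, just outside with 0.0479.

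**Figure D4:**
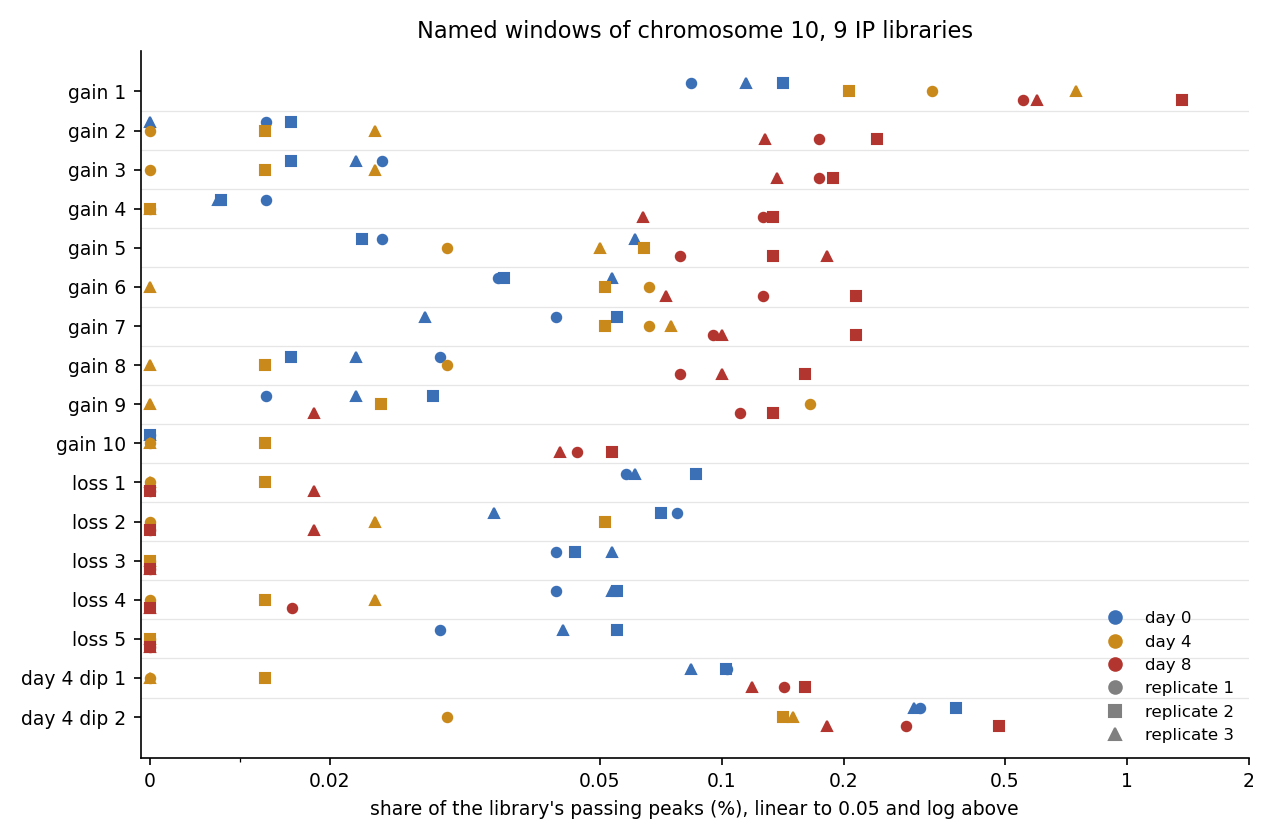
Share of each library's passing peaks (%, linear up to 0.05 and logarithmic above) in the 10 windows with the largest gain and the 5 with the largest loss at day 8 against day 0, in rank order, and in 2 windows with few day 4 peaks, chr10:97100001-97200000 (dip 1) and chr10:134300001-134400000 (dip 2). Symbols mark replicates. The day 8 libraries lie to the right of all day 0 libraries in 9 of the 10 gain windows, all but gain 9.

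Losses were smaller and more evenly spread: the 5 most negative windows summed to -0.258 points. The plus-strand window chr10:125100001-125200000, with -0.0626 points, held 9, 11 and 8 passing peaks at day 0, 0, 1 and 0 at day 4, and 0, 0 and 2 at day 8. Its strongest day 0 reproducible peak, chr10:125159841-125159951 (log2 fold 6.79), had no overlapping cluster in any day 4 library and clusters below the threshold in 2 of 3 day 8 libraries. The minus-strand windows chr10:500001-600000 and chr10:600001-700000, with -0.0444 and -0.0561 points, lie side by side. They held 5, 7 and 6 and 12, 9 and 5 passing peaks at day 0, against 0, 0 and 0 and 0, 0 and 2 at day 8. With the window before them, this run of 300 kb near the chromosome's start contributed -0.110 points. The reproducible day 0 peak chr10:553123-553237 (log2 fold 6.84) had no overlapping cluster of any fold at the later days.

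Among the other losses, the minus-strand window chr10:135300001-135400000 held 7, 6 and 7 passing peaks at day 0 and none in any of the 6 later libraries. Pooled over libraries, its day 0 share was at least 3.39-fold that of day 8 and at least 2.39-fold that of day 4. These bounds used floors of 3 peaks over each day. The minus-strand window chr10:14600001-14700000 held 7, 7 and 7, then 0, 1 and 1, then 1, 0 and 0. In all 5 loss windows the days 0 and 8 did not overlap, and in 4 of them every day 4 share lay below every day 0 share. In chr10:600001-700000, day 4 replicate 2 lay above day 0 replicate 3 in share. Sixth, just outside the list, was chr10:96300001-96400000 on the plus strand with -0.0434 points.

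The comparison of day 8 with day 4 brought in 2 windows where day 4 lay below both other days. The plus-strand window chr10:134300001-134400000 held 48, 48 and 39 passing peaks at day 0, 1, 11 and 6 at day 4, and 18, 18 and 20 at day 8. Its share was 0.329% ± 0.0432, 0.108% ± 0.0652 and 0.317% ± 0.153 (SD, n = 3), with 21, 0 and 1 reproducible peaks. The minus-strand window chr10:97100001-97200000 held 16, 13 and 11, then 0, 1 and 0, then 9, 6 and 13. Its share was 0.0966% ± 0.0108, 0.00429% ± 0.00743 and 0.141% ± 0.0213 (SD, n = 3). In both windows every day 4 library lay below every other library. Days 0 and 8 overlapped in the former, and in the latter every day 8 library lay above every day 0 library. These windows contributed 0.209 and 0.136 points to the day 8 minus day 4 difference, beside 0.413, 0.168 and 0.154 from the windows at ranks 1 to 3 of the day 0 comparison.

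The site chr10:97170691-97170787 in the last-named window shows the dip at a single peak. Its log2 folds were 7.71, 7.15 and 6.10 at day 0 and 5.55, 5.25 and 6.14 at day 8. At day 4 it had no cluster in replicate 1 and log2 folds of 4.31 and 3.76 in the others, with 1 of 3 libraries passing. The most negative day 8 minus day 4 contributions were small in points. The windows chr10:114800001-114900000 (plus), chr10:97600001-97700000 (minus) and chr10:34900001-35000000 (minus) contributed -0.0431, -0.0357 and -0.0346 points. Their day 4 mean shares were 2.06, 2.39 and 1.48 times those of day 8. Only in the first did every day 8 library lie below every day 4 library in share. Passing peaks in the first of these numbered 6, 7 and 10, then 3, 6 and 3, then 2, 2 and 4. In the second they were 8, 5 and 7, then 1, 4 and 4, then 2, 0 and 5. In the last they were 9, 11 and 13, then 2, 6 and 7, then 5, 3 and 6.

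Day 4 against day 0 was tested across all 2285 windows of the genome with at least 10 passing peaks over the 9 libraries, 89 of them on chromosome 10, with limma and Benjamini-Hochberg adjustment. On chromosome 10, 6 windows were called higher at day 4 (6.74%, against 14.2% of all windows), and 5 were called lower (5.62% against 8.4%). The test adds 0.5 peaks to every window, and since day 4 totals were smaller, an empty window comes out 1.59 higher at day 4 on the log2 scale by construction. With an addition scaled to each library's total, chosen after seeing the data, 3 windows were higher (3.37%, background 5.03%) and 11 lower (12.4%, background 16.3%). They shared 3 and 5 windows with the former calls. The count of 6 also fell to 2 of 67 windows without day 0 replicate 1 and to 3 of 85 without day 4 replicate 3. It fell to 3 of 82 without day 8 replicate 1 and to 1 of 68 without day 8 replicate 3. The median log2 difference was 0.32 over the 89 windows and 0.25 over all 2285, and -0.32 and -0.36 with the scaled addition.

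Lower at day 4 by limma was the dip window chr10:97100001-97200000, by a log2 difference of -2.66 ± 0.41 (SE, adjusted p = 5.62e-05), and its adjusted p was at most 0.0131 under the alternatives run. The window chr10:125100001-125200000 had -2.17 ± 0.53 (adjusted p = 0.00574) and chr10:135300001-135400000 had -2.25 ± 0.58 (adjusted p = 0.00770). Both of these, and chr10:500001-600000 (-2.10 ± 0.58, adjusted p = 0.0130), were largest-loss windows of day 8 as well, and that comparison shares the day 0 libraries. The 3 calls were lost with 2 peaks added, with adjusted p of 0.131, 0.331 and 0.477. The last of them was also lost with overlapping peaks merged (0.0954) and without day 0 replicate 2 (0.0538). The log2 differences for windows empty at a day depend on the addition and are no bound. The window chr10:134300001-134400000 had -1.64 ± 0.44 (adjusted p = 0.0115), and lost its call without day 4 replicate 1 (adjusted p = 0.0744). All 5 windows were also called lower with the scaled addition. The windows at chr10:125100001-125200000, chr10:135300001-135400000 and chr10:500001-600000 reached the minimum of 10 peaks only through their 28, 20 and 18 day 0 peaks, so the filter favoured a lower value at day 4.

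Higher at day 4 by limma was the window of the largest day 8 gain, chr10:71600001-71700000, by 1.74 ± 0.44 on the log2 scale (SE, adjusted p = 0.00731; 1.69 and adjusted p = 0.0487 with the scaled addition). The call was lost with an equal number of peaks per library (adjusted p = 0.198), without day 0 replicate 1 (0.0575) and without day 4 replicate 3 (0.0768). Its rank by day 8 gain rests on the same day 0 libraries. The minus-strand window chr10:95100001-95200000 had no passing peak at day 0 and 1 in each day 4 library. It came out at 3.18 ± 0.55 (limma, adjusted p = 0.000197, and 0.00792 with the scaled addition). Only its 3 day 4 and 8 day 8 peaks brought it to the minimum of 10. The filter thus favoured a higher value at day 4 there. The window chr10:112400001-112500000, named below, likewise had no day 0 peak and reached the minimum through its 10 day 8 peaks. The plus-strand window chr10:49500001-49600000 held 1, 1 and 1 peaks at day 0 and 1, 2 and 1 at day 4, and came out at 1.84 ± 0.52 (adjusted p = 0.0142; 0.0449 with the scaled addition). These are differences of single peaks in share, and the latter call was lost over clusters of any fold, where the log2 difference was 0.31 (adjusted p = 0.606), and without day 0 replicate 1 (0.0589). The other 3 calls, chr10:112400001-112500000, chr10:5900001-6000000 (plus) and chr10:68600001-68700000 (minus), were not made with the scaled addition, with adjusted p of 0.463, 0.518 and 1; the last of these held no peak at either day.

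For day 8, the same limma fit called 19 of the 89 windows higher than day 0 (21.3%, against 15.5% of all windows). It called 13 lower (14.6% against 19.5%). Against day 4 it called 11 higher (12.4% against 6.65%) and 2 lower (2.25% against 5.43%). Among the 89 windows, 26 had every day 8 library above every day 0 library (29.2%, against 19.6% of all windows). In 17, every one lay below (19.1% against 28.6%). Against day 4, 15 windows had every day 8 library above (16.9% against 11.6%) and 3 every one below (3.37% against 7.61%). With the scaled addition the calls against day 0 were 13 higher (14.6% against 9.23%) and 12 lower (13.5% against 19.6%). Those against day 4 were 9 higher (10.1% against 6.7%) and 1 lower (1.12% against 2.93%). These counts use the contrast by which the chromosome was chosen, so they are no test of it; they are given only beside the share of all windows.

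Merging overlapping passing peaks of the 9 libraries gave 1379 regions on chromosome 10, of which 706 were bound in 1 library and 25 in all 9. A region was bound in 3 of 3 day 8 libraries and 0 of 3 day 0 libraries in 36 cases, and 28 of these were also unbound at day 4. No share over all chromosomes is given for the 28, so that count is not read. The 36 lay in 18 windows, and 10 of them in the window with the largest gain, 7 in chr10:18400001-18500000 and 25 in the 10 windows together. The 36 were 2.61% of the regions, against 1.68% of 29356 regions merged in the same way over all chromosomes. The reverse pattern, 3 of 3 at day 0 and 0 of 3 at day 8, held for 83 regions, 6.02% against 9.45%. Both rest on the contrast that chose the chromosome and are not read further. For day 4 against day 0, 3 regions were bound in 3 of 3 day 4 and 0 of 3 day 0 libraries (0.218% against 0.262%), and 92 in the reverse (6.67% against 9.11%). The later libraries held fewer passing peaks on all chromosomes, and the part of this in these counts was not tested.

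The authors' reproducible lists, called over the 3 libraries of a day, held 310, 36 and 88 chromosome 10 peaks for days 0, 4 and 8. They made up 3.99% (95% Wilson interval 3.57 to 4.44), 3.80% (2.76 to 5.22) and 5.58% (4.55 to 6.83) of the lists; the intervals cover counting error only. Outside the window with the largest gain, 64 day 8 peaks remained, 4.06% of the list (3.19 to 5.15), against 3.88% at day 0. The 10 windows held 22, 8 and 45 of these peaks. The 88 day 8 peaks lay in 35 windows and the 310 of day 0 in 127. A reproducible peak of day 0 was overlapped by 55.7% (45.3 to 65.6) of those of day 8, and 16.8% of the day 0 list was overlapped by the day 8 list. On the other chromosomes these shares were 65.6% (63.2 to 68.0) and 17.1%, and the intervals of the former overlap. Among the 36 peaks of day 4, 94.4% (81.9 to 98.5) lay on one of day 0, against 85.6% (83.2 to 87.7) elsewhere.

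Width and fold were not used to choose the chromosome, but they describe the passing peaks whose number was used. In the window with the largest gain, more peaks went with narrower ones. Whether width depends on the number of peaks was not tested, so the width test is not known to be separate from that choice. The median width of its passing peaks was 69, 67 and 67 bases at day 0, 68, 68 and 71 at day 4, and 64.5, 61.5 and 61 at day 8. Every day 8 library lay below every other library, yet over the 3 tests made the difference missed the threshold (exact permutation test of F over 280 partitions, p = 0.0179, Benjamini-Hochberg adjusted 0.0536). On the other chromosomes the means were 68.3 ± 0.577, 65.3 ± 5.69 and 65.3 ± 1.15 bases (SD, n = 3; exact permutation test of F, p = 0.575). Within the 10 windows the day 8 medians were 56, 52 and 51 bases, against 68, 66.5 and 63.5 on the rest of chromosome 10. Without these windows the adjusted p was 0.536 (exact permutation test, chosen after seeing the data). In the window with the largest gain the day 8 medians were 41, 41 and 40 bases, against 62, 64.5 and 55 at day 0.

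The median log2 fold over input on chromosome 10 was 4.32 ± 0.15 at day 0, 4.09 ± 0.33 at day 4 and 4.29 ± 0.07 at day 8 (SD, n = 3). The difference between days did not pass the test (exact permutation test of F, p = 0.521, adjusted 0.782). The chromosome 10 median was above that of the other chromosomes in 7 of 9 libraries. By strand, the plus strand held 50.2% ± 1.66, 56.9% ± 1.06 and 55.8% ± 3.17 of the passing peaks (SD, n = 3).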

How the data were processed

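Per the submitters' processing notes, reads were handled with cutadapt, STAR and SAMtools on hg19; the peak caller and annotation are not given in the sources used here. The deposited files of the 9 immunoprecipitated libraries list clusters with a log2 fold over input and a −log10 p-value, both computed by the authors, and 3 further deposited files list reproducible peaks per day on the same scales. Inputs entered only through these values. The chromosome, the windows and the lists were chosen with earlier results of these data known. Peaks were counted per 100-kb window and strand and divided by the library's passing peaks. Window tests used limma 3.58.1 (R 4.3.3; lmFit, eBayes with variance trend) on log2 of (peaks + 0.5) over (passing peaks + 1) times 10000. All 9 libraries entered the fit with no replicate block, and p-values were adjusted over 2285 windows at 0.05. Overlap meant at least 1 base. The script was tested on simulated data. With 0.5 peaks added, day 4 against day 0 recovered 12% of windows set 4-fold apart, 22% of higher and 2% of lower ones. At 8-fold it recovered 44%, with 84% of higher and 4% of lower ones. The scaled addition recovered 5% (6% and 4%) at 4-fold and 38% (65% and 11%) at 8-fold. Windows set lower at day 4 were thus mostly missed. Windows were named by rule: the 10 largest and 5 most negative contributions of day 8 minus day 0, the 5 largest and 3 most negative of day 8 minus day 4, and up to 5 called windows per direction with the smallest p for day 4 against day 0. For some of these windows the strongest reproducible peak passing in 3 of 3 libraries of its day is given, and some windows had none. Peak numbers per library, from 105 to 659, limit precision. Alternatives are in the closing section. A motif count and gene lists were not run, since no hg19 genome or annotation was used.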

Additional observations from a re-analysis of the deposited data

How the results depend on the processing

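The day 8 minus day 0 difference in share (1.58 points) was 1.004 over clusters of any fold, 0.853 without the window of largest gain (chosen after seeing the data) and 1.23 to 1.96 with 1 library left out. Day 8 minus day 4 gave 1.40 to 2.14 with 1 library left out. The sum of the 10 largest windows (1.63) was 0.588 over clusters of any fold and 1.19 to 1.89 with 1 library left out. Day 4 against day 0 reversed to 0.0678 points at 8-fold over input (exact permutation p = 1) and ranged from -0.400 to 0.181 with 1 library left out.

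Window calls are listed as above and below, first for day 4 against day 0. Day 8 against day 0 and day 8 against day 4 follow. Limma called 6, 5, 19, 13, 11 and 2 of 89 windows. Clusters of any fold gave 41, 53, 88, 61, 59 and 21 of 548. An equal number of peaks per library gave 1, 6, 9, 8, 4 and 0 of 36. Adding 2 peaks gave 37, 2, 22, 1, 4 and 0 of 89. The scaled addition gave 3, 11, 13, 12, 9 and 1 of 89. A minimum of 5 peaks, with 179 windows tested, gave 20 day 4 windows above day 0 and 34 of day 8. A minimum of 20, with 47 tested, gave 1 and 9, with 5 below day 0 and 7 above and 0 below day 4. Ranges with 1 library left out were 1 to 8, 4 to 6, 9 to 21, 6 to 14, 5 to 12 and 0 to 4. Between 67 and 87 windows were tested there. Since the number tested changed, these counts do not compare as shares. Shares over all windows of the genome are given above only for the main fit and the scaled addition. Where a cause is not set by the alternative's construction, it was not tested. No called named window reversed.

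The adjusted p for width (0.0536) was 0.0429 at 8-fold over input and 0.0429 to 0.161 with 1 library left out; 0.0429 came without day 0 replicate 1, day 4 replicate 1 or day 4 replicate 2. Same-numbered libraries of different days correlated at -0.153 to 0.282 over windows (median 0.071, 9 pairs). Differently numbered ones correlated at -0.412 to 0.379 (median -0.032, 18 pairs). Whether a number marks a shared culture or batch is not said in the labels, and correlations this low and overlapping cannot decide it. With the replicate block the window calls were 6, 5, 19, 13, 12 and 3, and day 4 against day 0 in share gave an exact p = 1. The motif share was not run. Depth is unknown, and windows with few peaks carry little precision.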
